A study of Mus musculus with 5 samples.

Results

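Pou4f1 CUT&Tag signal was examined at the loci of 8 transcription factor genes, the 4 Ebf genes (Ebf1, Ebf2, Ebf3 and Ebf4) and the 4 Nfi genes (Nfia, Nfib, Nfic and Nfix). Every row of the deposited table that overlapped the body of one of these genes, or lay within 50 kb of it by GENCODE M21 on mm10, was taken. No measured value entered this rule for rows, but the genes were chosen with earlier results of these data known. The rule gave 27 of 8038 regions, 12 at Ebf loci and 15 at Nfi loci, and no region was within reach of more than 1 of the genes. CUT&Tag uses an antibody to bring a transposase to chromatin, so that DNA near the bound protein is cut, tagged and sequenced. The chromatin came from the retinas of wild-type mice at embryonic day E16.5, with 4 retinas in a pool, and was probed with rabbit anti-Pou4f1 (n = 2) or rabbit IgG (n = 2), while 1 further library made with an antibody to H3K9AC was not analysed here. Whole retina was used, in which the paper counts Pou4f1-expressing ganglion cells as a small minority of neurons. Strong binding in few of these cells and weak binding in many of them cannot be told apart. The authors selected the rows of the table for Pou4f1 signal, so an excess over IgG is in part built into them.

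Pou4f1 (Brn3a) is a POU-domain factor of retinal ganglion cells (RGCs), the output neurons of the eye. The Ebf proteins (early B-cell factors, also called Olf/EBF) carry a zinc-knuckle DNA-binding domain and a helix-loop-helix, and Ebf1, Ebf2 and Ebf3 are expressed in RGCs and other early-born retinal neurons, where they act in differentiation and axon growth. The Nfi proteins (nuclear factor I) bind a TTGGC palindrome, and Nfia, Nfib and Nfix act in late retinal progenitors, in their exit from the cell cycle and in the making of bipolar cells and Müller glia. Nfic, the remaining member, is best known from tooth root formation.

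Intronic sequences shared by the paralogs Ebf1 and Ebf3 lay in intron 6 of both genes. A region of each intron held a stretch that blastn aligned between the paralogs, with 85 of 104 aligned columns identical (81.7%) and no exon base on either side. They are shown because they were the only non-exonic stretch for which both copies lay in a region of the table. Capitals mark the letters ATNAATNAT, a consensus for POU-domain factors of this class, and both are written on the strand opposite to transcription (GRCm38, chr11:44837760-44837863, minus strand, and chr7:137244999-137245101, plus strand).
Ebf1 intron 6: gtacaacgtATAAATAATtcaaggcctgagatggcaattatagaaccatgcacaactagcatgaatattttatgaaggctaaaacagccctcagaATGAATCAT
Ebf3 intron 6: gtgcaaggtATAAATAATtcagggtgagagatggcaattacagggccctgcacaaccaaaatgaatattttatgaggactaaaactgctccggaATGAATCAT
Both copies carried the same pair of sites, ATAAATAAT and ATGAATCAT, in the same order and 86 bases apart in Ebf1 and 85 bases apart in Ebf3, from first letter to first letter. Introns 6 also had the same place in both genes, since in the transcripts Ebf1-202 and Ebf3-208 the exon before was 69 bases long and the exon after 82 bases long.

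The POU consensus was also present elsewhere at these loci, and 5 windows of 129 bases are shown as examples. They were picked for their place and do not compare the families, since Ebf regions also held sites off the centre (187 and 191 bp in Ebf1 intron 8, 155 to 1249 bp in Ebf3 intron 6) and Nfia held sites 146 and 224 bp from it. In the Ebf windows, the site lay 26 bp from the centre of the region 5′ of Ebf1 (chr11:44611184-44611312, plus strand), 49 bp from the centre of the second of 3 regions in Ebf1 intron 6 (chr11:44831529-44831657, plus strand) and 43 bp from the centre of the region in Ebf4 intron 2 (chr2:130299286-130299414, minus strand). In the Nfi windows it lay 368 bp from the centre in Nfib intron 1 (chr4:82519985-82520113, plus strand) and 1180 bp from the centre in Nfic intron 9 (chr10:81403640-81403768, plus strand), and the Nfic window also holds the other 2 sites of that region in lower case. Capitals mark the site.
Ebf1 flank: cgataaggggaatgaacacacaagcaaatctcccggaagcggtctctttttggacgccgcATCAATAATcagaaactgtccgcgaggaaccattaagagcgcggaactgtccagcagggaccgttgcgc
Ebf1 intron 6: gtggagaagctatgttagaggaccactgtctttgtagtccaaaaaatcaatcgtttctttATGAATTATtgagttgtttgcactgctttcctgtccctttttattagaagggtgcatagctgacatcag
Ebf4 intron 2: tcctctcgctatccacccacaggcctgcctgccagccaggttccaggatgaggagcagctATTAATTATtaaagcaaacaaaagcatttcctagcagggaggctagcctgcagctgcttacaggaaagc
Nfib intron 1: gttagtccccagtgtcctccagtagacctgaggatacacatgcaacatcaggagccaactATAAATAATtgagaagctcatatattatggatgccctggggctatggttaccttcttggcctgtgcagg
Nfic intron 9: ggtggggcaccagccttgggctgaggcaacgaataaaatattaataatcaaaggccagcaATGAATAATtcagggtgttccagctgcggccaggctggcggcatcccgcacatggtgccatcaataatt

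Regions with a midpoint within 1 kb of a start of their own gene were found for Ebf1 and Ebf3 alone among the 8 genes. With a limit of 3 kb, Nfic had 1 as well, its midpoint 1.97 kb from an Nfic start. The 250 bases before the first annotated start of Ebf1 and of Ebf3 lay wholly inside a region and are shown with CG dinucleotides in capitals (GRCm38, chr11:44617067-44617316, plus strand, and chr7:137314446-137314695, minus strand).
Ebf1 start: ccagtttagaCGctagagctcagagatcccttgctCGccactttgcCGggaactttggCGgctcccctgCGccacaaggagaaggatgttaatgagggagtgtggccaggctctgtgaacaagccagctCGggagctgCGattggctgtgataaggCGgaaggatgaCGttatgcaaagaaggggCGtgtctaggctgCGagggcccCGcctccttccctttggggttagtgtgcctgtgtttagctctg
Ebf3 start: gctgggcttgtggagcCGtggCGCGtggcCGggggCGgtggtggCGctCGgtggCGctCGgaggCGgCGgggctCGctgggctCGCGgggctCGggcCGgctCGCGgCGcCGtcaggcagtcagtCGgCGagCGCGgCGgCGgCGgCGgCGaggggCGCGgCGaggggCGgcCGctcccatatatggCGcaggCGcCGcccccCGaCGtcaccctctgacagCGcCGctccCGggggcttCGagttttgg
The Ebf3 stretch was richer in G and C (80%, 43 CG) than that of Ebf1 (58%, 12 CG). Neither contained the POU consensus, which 3.42% of 32851 RefSeq promoter windows of the same length contained, nor the octamer ATGCAAAT (1.60% of these windows), the E-box CAGNTG (44.8%) or the Nfi half-site TTGGCA (12.3%), each searched on both strands. The Ebf3 stretch held TCCCNNGGG, part of the site that Ebf proteins bind (5.60% of windows).

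The values are signal per base of a region and not numbers of reads. Once multiplied by region length, every value was a whole multiple of a step of its library (100% within a tolerance of 0.05 steps), and a read covered about 78.9 bp. On this footing the median region of the table holds 48.6 and 31.4 read equivalents in Pou4f1 replicates 1 and 2, and 0.950 and 1.01 in the library named IgG and the library named negative control, which was taken as the other IgG library. The 27 regions held 27.7 to 466 read equivalents in Pou4f1 replicate 1, 11.1 to 323 in replicate 2, 0 to 6.40 in the library named IgG and 0 to 9.82 in that named negative control, so the IgG values rest on a few reads each. Differences were tested with limma on log2(signal + 1) between the Pou4f1 and the IgG libraries (n = 2 each), with p-values adjusted by Benjamini and Hochberg's method over the 8038 regions and a call at an adjusted p under 0.05. This scale understates differences at low signal, and where a region is listed at 0 in both IgG libraries no fold is given.

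In both Pou4f1 libraries the signal was above both IgG libraries at all 27 regions, as it was at 96.5% of all regions. The test called 21 of the 27 regions higher in Pou4f1, 10 of 12 at Ebf loci and 11 of 15 at Nfi loci, and called 0 lower (0.224% of all regions), no log2 difference of a member being below 0. Among all regions 64.8% were called higher. The 6 regions that did not pass were each listed at 0 in 1 IgG library and not in the other, and they make up 6 of the 10 members of that kind. The 6 members listed at 0 in both IgG libraries, 4 at Ebf loci and 2 at Nfi loci, all passed. The same split ran through the table, where 99.7% of regions at 0 in both IgG libraries, 39.4% of those at 0 in 1 and 74.1% of those at 0 in neither were called. Without Pou4f1 replicate 1, and likewise without replicate 2, 8 of the 27 regions were called (5 at Ebf and 3 at Nfi loci), whereas without either IgG library all 27 were. The calls depend on how deeply the IgG libraries were sequenced, which the sources used here do not give. Taken as 4 times shallower, they left 7 of the 27 called, and with column totals as library sizes, which moved the median log2 difference of all regions by -2.48, 6 were called and 7 lay below 0. The 6 members with no IgG signal were called in both cases, which the settings fix, since scaling leaves a value of 0 as it is. Column totals sum only rows selected for Pou4f1 signal, so they do not measure depth, and scaling by them takes out part of the Pou4f1 excess. Log2 differences given below under that setting are therefore not differences corrected for depth.

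**Figure D1:**
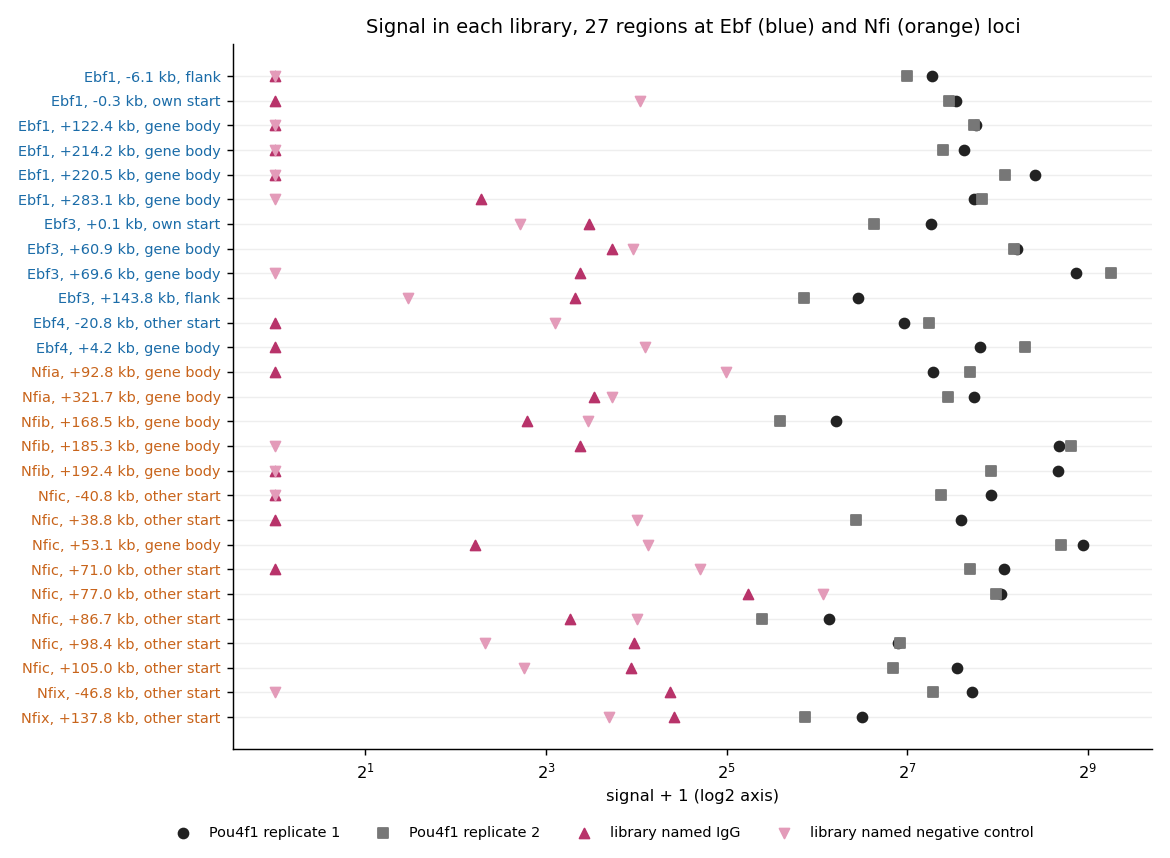
Signal + 1 on a log2 axis in each of the 4 libraries for the 27 regions, labelled by gene, distance of the midpoint from the first annotated start and place, with Ebf loci in blue and Nfi loci in orange. Circles and squares are Pou4f1 replicates 1 and 2 and triangles the 2 IgG libraries, and at every region both Pou4f1 points lie to the right of both IgG points.

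Ebf1 (ENSMUSG00000057098.14, chr11:44617317-45008091, plus strand) had 6 regions, the most of any Ebf gene, and 4 of them lay in introns. The strongest was the one that shares sequence with Ebf3 (chr11:44837477-44838108, intron 6 of Ebf1-202), with a Pou4f1 signal of 341 in replicate 1 and 269.8 in replicate 2 and a rank of 1457 among all regions. Neither IgG library had any signal there, and the region passed the test (limma, adjusted p = 0.00222). The other regions of this 225.6 kb intron had lower signal, 217 and 214 at chr11:44739410-44739996 and 196 and 168 at chr11:44831153-44831936, again with no IgG signal and with the same limma adjusted p. The replicates of the former differed by little, whereas replicate 1 was the higher at the other 2 regions of the intron. In intron 8 (chr11:44900058-44900850) the signal was 213 and 226 in Pou4f1 against 3.85 and 0 in IgG, a log2 difference of 6.64 ± 0.97 (SE, limma adjusted p = 0.0149). That region held a pair of overlapping POU consensus sites on opposite strands, 187 and 191 bp from its centre.

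At the start of Ebf1, where transcription begins, the region chr11:44616511-44617429 had a Pou4f1 signal of 186 and 175 against 0 and 15.5 in IgG. The groups did not overlap, but the log2 difference of 5.48 ± 1.64 missed the threshold (limma, adjusted p = 0.0567). Its midpoint lay 347 bp before the first Ebf1 start and 46 bp from the start of Gm37695, a provisional transcript annotation, so signal at these starts cannot be told apart. Upstream, 6.095 kb before that Ebf1 start, the region chr11:44610632-44611812 had a signal of 154 and 127 with none in either IgG library (limma, adjusted p = 0.00222). RefSeq places Ebf1 starts at chr11:44618100 and chr11:44620228, 0.671 and 2.80 kb beyond the end of the region at the GENCODE start.

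Ebf3 (ENSMUSG00000010476.14, chr7:137193673-137314445, minus strand) had 4 regions and the strongest signal of all 27. In intron 6 of Ebf3-208, the region chr7:137243579-137246135 had a Pou4f1 signal of 467 in replicate 1 and 609.5 in replicate 2 against 9.39 and 0 in IgG, and ranked 280 of 8038. Its log2 difference was 7.37 ± 1.39 (SE, limma, adjusted p = 0.0254, but 4.85 and not called with column totals as library sizes). At 2557 bp it was also among the longest regions (rank 43 by length), and it held 6 POU consensus sites, a number that 4 of the 8028 regions on chromosomes reached (0.0498%, this one included). None of the 6 lay in its central 200 bp, and the 2 sites of the stretch shared with Ebf1 were 155 and 240 bp from its centre. It was also the one member with the octamer, which 3.64% of all regions held.

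The other regions of Ebf3 were weaker. In the same 71.5 kb intron, chr7:137252852-137254314 had a signal of 297 and 289 against 12.2 and 14.6 in IgG, with close agreement inside each pair of libraries (log2 difference 4.36 ± 0.39, limma adjusted p = 0.00478, but 0.40 and not called with column totals as library sizes). At the start of Ebf3, chr7:137313171-137315501 had 153 and 97.9 against 10.1 and 5.53 (3.86 ± 0.54, limma adjusted p = 0.0138, but -0.02 with column totals as library sizes). This region, 2331 bp long with a GC content of 69.5%, covered the first annotated start, and its midpoint lay 78 bp from the nearest Ebf3 start. Beyond the 3′ end of the gene, chr7:137169995-137171303 had 87.1 and 57.1 against 9.03 and 1.77 (3.76 ± 0.86, limma adjusted p = 0.036, but 0.07 and not called with column totals as library sizes) and ranked 7593. In all 3 regions the Pou4f1 and IgG values did not overlap, and replicate 1 was the higher of the Pou4f1 libraries.

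Ebf4 (ENSMUSG00000053552.14, chr2:130295169-130370481, plus strand) had 1 region in its body and 1 at a neighbour. The former, chr2:130298951-130299835 in intron 2 of Ebf4-203, lay 3.454 kb after the nearest Ebf4 start. Its Pou4f1 signal was 223 in replicate 1 and 316 in replicate 2 against 0 and 16.1 in IgG, and the log2 difference of 6.01 ± 1.67 missed the threshold by a small margin (limma, adjusted p = 0.0502). The other, chr2:130273925-130274771, covered the start of Nop56, which encodes a core protein of box C/D small nucleolar RNPs. Its signal was 124 and 150.0 against 0 and 7.56 (5.55 ± 1.28, limma adjusted p = 0.0369, but 3.27 and not called with column totals as library sizes). Ebf4 was the Ebf gene at which replicate 2 was the higher in every region.

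Ebf2 (ENSMUSG00000022053.13, chr14:67233292-67430918, plus strand) had no region in its body of 197.627 kb or within 50 kb of it, and none within 100 kb. The nearest row of the table lay 223.9 kb away, at the start of Bnip3l, a mitophagy receptor gene. The table lists called regions only, so this gives no signal level for Ebf2.

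**Figure D2:**
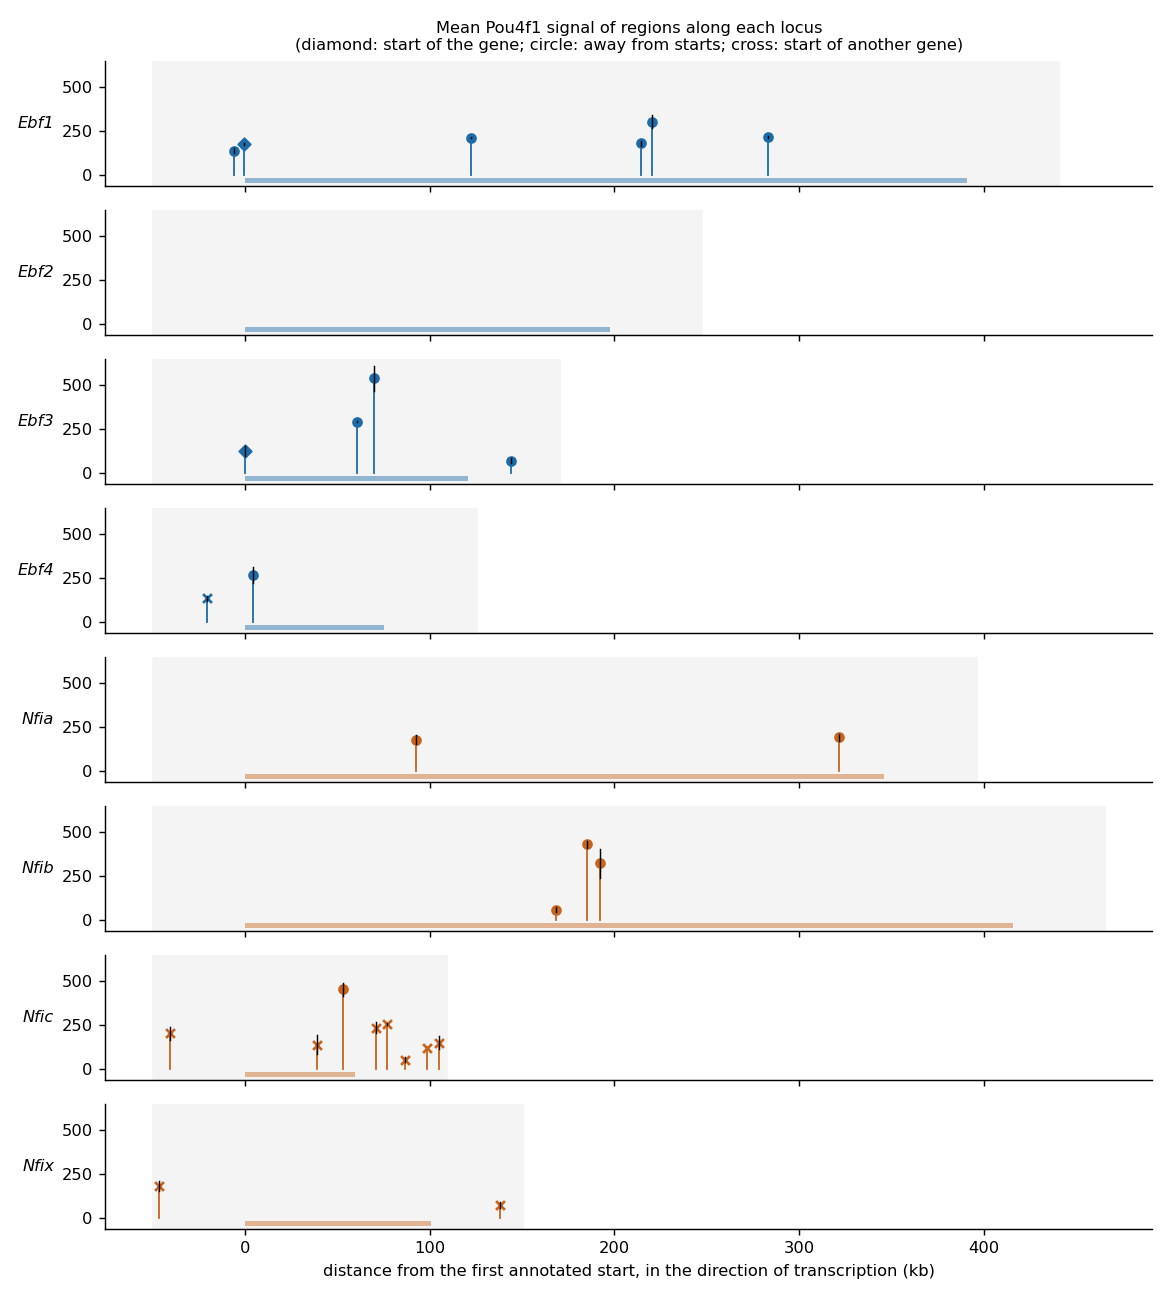
Mean Pou4f1 signal of each region (vertical axis, n = 2, black bars from the lower to the higher replicate) along the 8 loci, by distance from the first annotated start in kb, with the gene as a coloured bar and the window of 50 kb on either side shaded. Diamonds mark regions at a start of the gene itself, seen for Ebf1 and Ebf3 alone, circles regions away from starts, and crosses regions at a start of another gene, which are 9 of the 15 at Nfi loci.

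Nfib (ENSMUSG00000008575.17, chr4:82290173-82705750, minus strand) had 3 regions, all inside intron 1 of the transcript Nfib-212 and 168.5 to 192.4 kb from the first annotated start. Nfib-212 has 2 exons, and the 12-exon transcript Nfib-201 does not span the midpoints of these regions. The 3 regions lay 7.575, 14.6 and 31.4 kb before the nearest Nfib start. The strongest, chr4:82519767-82521067, had a Pou4f1 signal of 410.4 and 450.1 against 9.38 and 0 in IgG and ranked 568 (log2 difference 7.06 ± 1.38, SE, limma, adjusted p = 0.0274, but 4.54 and not called with column totals as library sizes). Next to it, chr4:82513056-82513652 had 407 in replicate 1 but 242 in replicate 2, with 0 in both IgG libraries (limma adjusted p = 0.00222). The GC content was 44.8% in the first of the pair and 66.7% in the second. The third, chr4:82536503-82537919, was among the weakest of the table at 72.9 and 47.3 against 5.92 and 10.04 (2.77 ± 0.52, limma adjusted p = 0.025, rank 7805, but -1.09 with column totals as library sizes). The nearest annotated start of any gene to all 3 was that of Gm11266, an antisense transcript.

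Nfia (ENSMUSG00000028565.18, chr4:97772734-98118874, plus strand) had 2 intronic regions of middle rank. In intron 2 of Nfia-202, 14.6 kb before the nearest Nfia start, chr4:97864975-97866101 had a Pou4f1 signal of 155 and 206 against 0 and 30.8 in IgG. The Pou4f1 and IgG values did not overlap, but the log2 difference of 4.99 ± 2.01 did not pass (limma, adjusted p = 0.0946). In intron 10, chr4:98093835-98094990 had 213 and 174 against 10.6 and 12.3 and passed (3.96 ± 0.40, limma adjusted p = 0.00644, but 0.03 and not called with column totals as library sizes). Each held 1 POU consensus site, 224 and 146 bp from the centre. RefSeq places a further Nfia start upstream of the GENCODE gene, at chr4:97581943, and the nearest row was 172.6 kb from it.

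Nfic (ENSMUSG00000055053.18, chr10:81396186-81455635, minus strand) is the shortest of the 8 genes at 59.45 kb and lies among many others, and 7 of its 8 regions were at starts of other genes. The exception was chr10:81400843-81404206, which ran over intron 9 of Nfic-207 and 306 bp of Nfic exons, with its midpoint 1.970 kb before the nearest Nfic start. At 3364 bp it was the fifth longest region of the table, and its Pou4f1 signal of 492 and 415 against 3.63 and 16.52 in IgG ranked 482. Its log2 difference was 5.65 ± 0.85 (SE, limma, adjusted p = 0.0158, but 1.80 and not called with column totals as library sizes). Its 3 POU consensus sites lay together, 1159 to 1239 bp from the centre. RefSeq gives an Nfic start at chr10:81427173, 10.02 kb from the nearest row.

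The regions at neighbours of Nfic ran from 55.2 to 257 in mean Pou4f1 signal. The highest was at a start of Fzr1, which encodes an activator of the anaphase-promoting complex, with 263 and 252 against 36.8 and 65.9 in IgG (chr10:81378101-81379146). It had the highest IgG signal of all 27 regions, and its log2 difference was among the smallest at 2.36 ± 0.50 (limma, adjusted p = 0.0312). The start of Dohh, for the last enzyme of hypusine synthesis, had 268 and 206 against 0 and 25.2 (limma adjusted p = 0.0718), and that of Ncln had 242 and 165 with 0 in both IgG libraries (adjusted p = 0.00222). A region at Mir1191b, inside intron 2 of Nfic, had the largest ratio between the Pou4f1 replicates of all 27, 192 against 85.8, and did not pass (limma adjusted p = 0.0691). At Mfsd12, 118 and 120.4 against 14.7 and 4.03 (limma adjusted p = 0.0283) came with a pair of overlapping POU consensus sites 521 and 525 bp from the centre. The remaining regions, at Hmg20b and at a second start of Fzr1, passed with limma adjusted p of 0.0209 and 0.0459, and the latter had the lowest mean of the 27, 69.5 and 40.9 against 8.63 and 15.1. With column totals as library sizes the log2 differences at Hmg20b, Mfsd12 and both regions of Fzr1 turned below 0 (-0.0492, -0.10, -1.66 and -1.79).

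Nfix (ENSMUSG00000001911.16, chr8:84699876-84800344, minus strand) had no region in its body, and the nearest row lay 36.7 kb away. Of the 2 regions within 50 kb, that at the start of Ier2, an immediate early gene, had 89.5 and 57.5 against 20.3 and 12.0 (log2 difference 2.13 ± 0.53, SE, limma, adjusted p = 0.0417, but -1.82 with column totals as library sizes). That at the start of 1700122E12Rik had 209.9 and 155 against 19.7 and 0 and did not pass (5.32 ± 1.77, limma adjusted p = 0.0681). The RefSeq starts of Nfix were 66.5 to 73.7 kb from the nearest row. Nfix and Ebf2 were thus the members with no row in the gene.

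By their strongest region, the genes ran in the order Ebf3 (mean Pou4f1 signal 538), Nfic (453), Nfib (430.2), Ebf1 (305), Ebf4 (269.5), Nfia (194) and Nfix (182). The replicates of neighbours in this order overlapped except between Nfib and Ebf1 and between Ebf4 and Nfia. Genes of the 2 families were mixed in it. The median over all regions was 199 at Ebf loci and 182 at Nfi loci, beside 173 for all regions on chromosomes. This order turned with the replicate, with 204 at Ebf and 209.9 at Nfi loci in replicate 1 alone and 194 and 165 in replicate 2 alone. Away from every annotated start the medians were 219 at Ebf loci (9 regions, 72.1 to 538), 259 at Nfi loci (6 regions, 60.1 to 453) and 212 over all such regions of the table. There replicate 1 alone gave 217 and 310.2, and replicate 2 alone 226 and 224, so that the Nfi median was the higher in replicate 1 and not in replicate 2. These are descriptions, since regions of a gene are not replicates of a condition. In all, 17 of the 27 regions were above the median of the table by mean Pou4f1 signal and 3 were in its highest 10%.

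**Figure D3:**
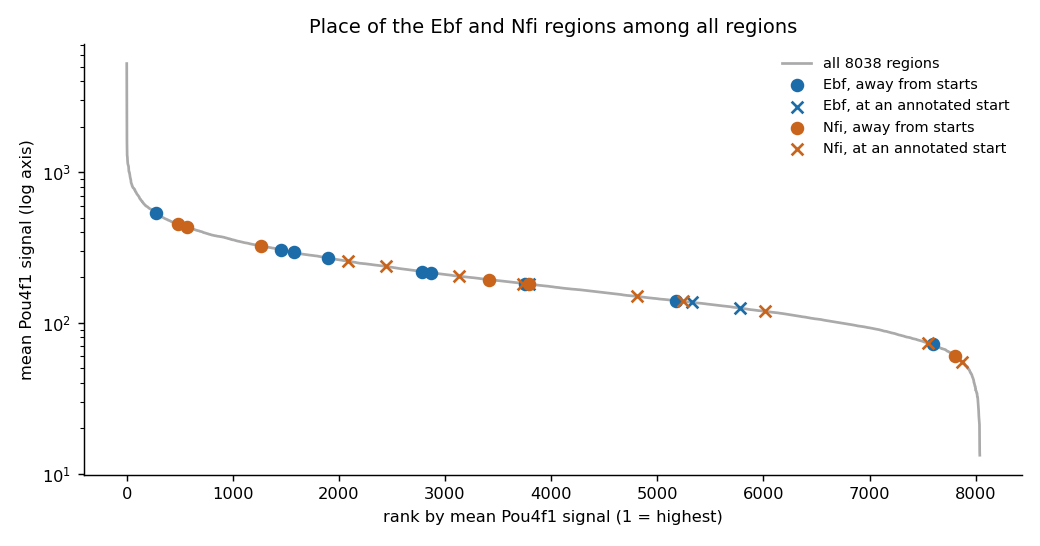
Mean Pou4f1 signal (log axis) against rank among all 8038 regions, with the 27 regions as points on the grey curve, blue for Ebf and orange for Nfi loci, circles away from starts and crosses at an annotated start. The 3 points in the highest 10%, at ranks 280, 482 and 568, are intronic regions of Ebf3, Nfic and Nfib, and both families run to the lower end of the curve.

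The places of the regions differed between the families. At Ebf loci 2 regions were at a start of the gene itself, 7 in the body away from starts, 2 in the flanks and 1 at the start of another gene. At Nfi loci the figures were 0, 6, 0 and 9. These places rest on the limit of 1 kb, and with a limit of 3 kb Nfic had 1 region at its own start. Per 100 kb of gene body, the body regions away from starts came to 0.892 for Ebf and 0.651 for Nfi genes. Per 100 kb of window, regions of every kind came to 1.01 and 1.13, beside 0.475 for protein-coding genes as long as the members. The Nfi figure rested largely on Nfic (5.02), where 7 of 8 regions were at starts of other genes. It was 0.448 at Nfia, 0.582 at Nfib and 0.998 at Nfix, and the Ebf genes ran from 0 (Ebf2) to 1.81 (Ebf3). Of the 8 genes, 6 had a body region away from starts and 4 had 2 or more (Ebf1, Ebf3, Nfia and Nfib), beside 15.4% and 3.90% of the 3953 protein-coding genes whose length fell between those of the shortest and the longest member. A region at the gene's own start was seen at 2 of the 8, beside 38.2% of those genes, and any region within 50 kb at 7 of the 8, beside 65.2%. The longest members were Nfib (416 kb), Ebf1 (391 kb) and Nfia (346 kb). The other genes were not matched to each member's length, and the members were chosen with earlier results known. These shares are thus not evidence of enrichment.

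Pou4f1 replicate 1 had the higher signal at 20 of the 27 regions, beside 5373 of all 8038 regions. The ratio of replicate 2 to replicate 1 had a median of 0.958 at Ebf loci and 0.738 at Nfi loci. Over the table it was 0.701 at regions at a start and 1.16 at those away from starts, and start regions were 3 of 12 at Ebf loci and 9 of 15 at Nfi loci. Away from starts the medians were 0.973 (Ebf) and 0.831 (Nfi), both under that of all such regions.

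Of the 12 Ebf regions, 4 had the POU consensus in their central 200 bp, and 0 of the 15 Nfi regions had it, beside 8.10% of all regions on chromosomes. Away from starts these were 4 of 9 Ebf and 0 of 6 Nfi regions, beside 20.2% of all such regions. At starts, where 9 of the Nfi regions lay, 1.32% of all regions had it, so the counts over all places do not compare the families evenly. The 4 were the flank region and 2 intron 6 regions of Ebf1 and the intron 2 region of Ebf4, all in the sequences shown above. In the whole region it was found at 6 of 12 Ebf regions and 5 of 15 Nfi regions (21.7% of all regions), and away from starts the share was 66.7% in both families, beside 47.9% of all such regions. The regions at the starts of Ebf1 and Ebf3 held none. The Nfi half-site TTGGCA was in the central 200 bp of 3 Ebf regions and 0 Nfi regions (6.90% of all regions), and TCCCNNGGG in 0 and 1 (6.56%). A match is a match of letters and not evidence of binding.

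The alignment of the 27 regions with the 8 loci gave 2 more intronic pairs, both between introns 6 of Ebf1 and Ebf3 and both with a region on 1 side alone. Part of the Ebf1 region chr11:44739410-44739996 matched chr7:137264460-137264653, with 144 of 201 aligned columns identical (71.6%), and the nearest Ebf3 region was 10146 bp from that match. Part of the Ebf3 region chr7:137252852-137254314 matched chr11:44785137-44785253, with 95 of 117 identical (81.2%), and the nearest Ebf1 region was 45141 bp away. Thus 2 of the 3 intron 6 regions of Ebf1 and both of Ebf3 contained sequence kept between the paralogs, and at 1 of the 3 matched places both copies were in the table. The rest of these introns was not aligned between the paralogs, so no background share can be set beside these counts. No such non-exonic match was found with Ebf2, Ebf4 or the Nfi loci at the E-value limit of 1e-4. The region at the start of Ebf3 matched exons of Ebf1, Ebf2 and Ebf4, which lay outside every region.

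**Figure D4:**
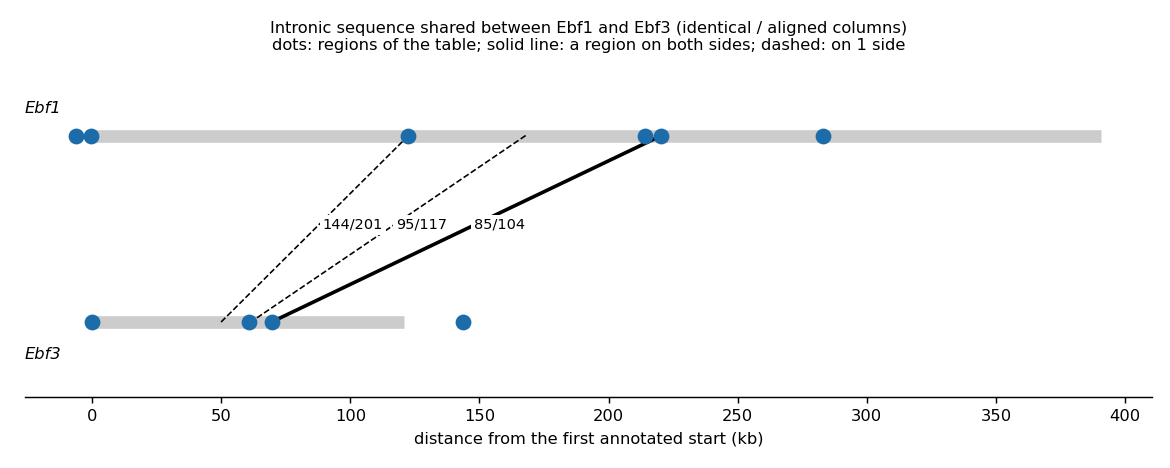
Intronic stretches shared between Ebf1 (top) and Ebf3 (bottom), each gene drawn as a grey bar by distance from its first annotated start in kb, with blue dots for regions of the table and identical over aligned columns written on each line. The solid line, 85 of 104, joins a region to a region, and the dashed lines, 144 of 201 and 95 of 117, join a region to a place with none.

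Other genes of the same programmes were counted by the same window. These lists were chosen with earlier results of these data known, so their shares are not evidence of enrichment. From the same experiment the paper reports Pou4f1 binding at Atoh7, Pou4f2 and Isl1. Of 10 other RGC factors (Atoh7, Pou4f2, Isl1, Onecut1, Onecut2, Sox4, Sox11, Myt1l, Klf7 and Zfp423), all 10 had a region, beside 53.1% of all protein-coding genes. These were 21 regions, of which 15 were called higher (71.4%, limma, beside 64.8% of all regions) and 0 lower, and 11 lay away from starts. Of 13 genes of late progenitors and Müller glia (Sox2, Sox8, Sox9, Hes1, Hes5, Lhx2, Zfp36l1, Zfp36l2, Rlbp1, Glul, Slc1a3, Id1 and Id3), 8 had a region, 10 in all, of which 5 were called higher (50%) and 0 lower, and 3 lay away from starts. The median of the mean Pou4f1 signal was 153 and 110.0 in these lists, both below the 173 of all regions on chromosomes. No log2 difference in either list was below 0.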

How the data were processed

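CUT&Tag libraries from pooled wild-type E16.5 mouse retinas were analysed for anti-Pou4f1 (n = 2) and IgG (n = 2), and the H3K9AC library was not analysed here. Per the submitters' processing notes and the paper's methods, the authors aligned the reads to mm10 with Bowtie2 2.4.5 and called regions with SEACR (relaxed mode), and they deposited 1 signal value per region and library. For the scaling of this signal, the depth of the libraries and the pooling of replicates before region calling, these sources state nothing. The file is named for read counts, but its values are not whole numbers, so no count model was used. The column named negative control was taken as IgG, the only negative control named for CUT&Tag, and neither IgG column carries a replicate number. The paper calls its 2 replicates for each antibody independent, but nothing says that they came from separate litters. The p-values therefore measure the spread between these libraries, which may be technical.

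Pou4f1 and IgG were compared on a log2 scale, after a pseudocount of 1 was added, with limma 3.58.1 (R 4.3.3), no scaling, no filter on low signal and no covariate. Adjustment (Benjamini-Hochberg) covered every region of the table. Gene models were those of GENCODE M21, and bases were read from the RefSeq copy of GRCm38.p6. Starts in the table were counted from 0 and are printed counted from 1. A region was at a start where its midpoint was within 1 kb of an annotated start. Motifs were searched on both strands in the central 200 bp and in the whole region of the 8028 regions on chromosomes, and ATNAATNAT sites may overlap each other. Regions were aligned to the 8 loci with blastn 2.17.0 with soft-masked repeats left out. Read equivalents are the signal times the region length, divided by the step and the 78.9 bp that 1 read covers in the IgG libraries, and overlapping reads cannot be told from longer ones. Other steps used Python 3.11.15, pandas 2.3.3, numpy 2.4.6 and samtools 1.23.1.

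The limma step was tested on simulated data. The members and gene lists were chosen with earlier results of these data known. Some genes of the late progenitor and glial list are not reported here and enter none of its counts. Regions named with values were those at a start of a member, the 3 of highest mean Pou4f1 signal among the others of each gene, and those with the POU motif, and the other regions of Nfic were named after their values were seen. Alternatives were other pseudocounts (0.1 and 10), column totals or a factor of 4 for IgG as scaling, a minimum on the summed signal of 50, a trend of spread on level, each library left out, other windows, start limits and motifs.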

Additional observations from a re-analysis of the deposited data

How the results depend on the processing

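All 27 log2 differences stayed above 0 except with column totals as library sizes, where 7 turned. These were the start of Ebf3 (-0.0185), the weakest Nfib region (-1.09), Hmg20b (-0.0492), Mfsd12 (-0.10), the 2 Fzr1 regions (-1.79 and -1.66) and Ier2 (-1.82). The totals sum only rows selected for Pou4f1 signal, so this setting takes out part of the Pou4f1 excess and does not correct for depth. Column totals called 1821 regions of the table, 6 members, 4 at Ebf and 2 at Nfi loci, and IgG taken as 4 times shallower called 2152, 7, 5 and 2. A pseudocount of 0.1 left 6 Ebf regions called and moved the table's count to 3492, beside 7443 with a pseudocount of 10. With each library left out in turn, 2360 to 7710 regions were called, with 8 to 27 members, 5 to 12 Ebf and 3 to 15 Nfi regions. The low ends came from leaving out a Pou4f1 library and the high ends from leaving out an IgG library, where the lone library was assumed to vary like the others. A trend of spread on level called 20 members, 19 of them shared with the main fit. The cause of these shifts was not tested. A window of 10 kb found 17 regions (33 with 100 kb). A start limit of 3 kb put 3 regions at a start of their own gene, beside 2 in the main setting. The POU consensus was in 11 whole regions and the octamer in 0 central windows. The median signal away from every start was 219 at Ebf and 259 at Nfi loci. No paired analysis was possible because the IgG columns carry no replicate numbers, so the fit with a replicate block was not run. The IgG libraries held about 1 read equivalent in the median region (0.950 and 1.01), which limits the precision of every difference.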

Other observations

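Beyond the letters searched, the members differed in composition in the way of the table as a whole. Away from starts the Ebf regions had a median GC content of 47.7% (n = 9) and the Nfi regions one of 51.6% (n = 6), beside 49.0% for all such regions, and the density of CG was 1.64 and 1.92 per 100 bp beside 1.397. The member regions at a start had 61.1% GC (n = 12) and 7.18 CG per 100 bp, beside 62.7% and 7.55 for all regions at a start. The Nfib region chr4:82513056-82513652 had 66.7% GC and 9.38 CG per 100 bp, with the nearest annotated start 5338 bp away, and its GC content was the highest of the 15 members away from starts.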
